A study of Mus musculus with 12 samples.

Results

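The 7 genes described here were *Cdkn1a*, *Mdm2*, *Eda2r*, *Phlda3*, *Bax*, *Trp53inp1* and *Zmat3*, known direct transcriptional targets of p53. They were chosen by name, and all 7 had a row among the 3799 genes of the table. RNA was sequenced from the livers of male C57BL/6J mice aged 8 weeks, with 12 libraries in 4 groups of 3. Saline mice were injected with saline, and their label reads vehicle, but an oral vehicle is not stated for them. DOX mice were injected intraperitoneally with 10 mg/kg doxorubicin at day 0 and again at day 7 and were given the vehicle, and DOX + K35 and DOX + K27 mice had the same doxorubicin with 50 mg/kg of K35 or K27 by gavage every other day from day 2. Livers were taken at day 20. K27 is an analog of K35, and both are known here by code names only. Doxorubicin was given as repeated high doses to bring on premature ageing, and the state of DNA damage in these whole livers was not measured here. No group received a compound without doxorubicin.

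p53 is a transcription factor that is normally kept low by *Mdm2*-driven degradation. DNA breaks, such as those left by doxorubicin when it traps topoisomerase II, stabilise p53, which then binds paired half-sites near its targets and raises their transcription. The targets arrest the cell cycle, remove damaged cells, tune survival signalling and switch p53 off again. In liver, a tissue of mostly resting hepatocytes, sustained activity of this program is associated with cellular senescence.

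Values are the deposited expression values per gene and library, read here as FPKM, which is fragments scaled to transcript length and library size, because the table does not name its unit. TPM would differ from them by 1 factor per library, and depth is unknown. Fold changes below are differences of mean log2(FPKM + 1), tested with limma in 1 fit of the 3317 genes whose mean reached 1 FPKM, with Benjamini-Hochberg adjusted p under 0.05 as the threshold. *Eda2r* and *Zmat3* averaged under 1 FPKM and entered a fit of all 3799 genes without that filter. For these and other low genes the log2 difference understates the change, so for low members the group means or their ratio are given beside it.

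In GRCm38 with the GENCODE M21 annotation, *Cdkn1a* (ENSMUSG00000023067) spans 29090976 to 29100727 of chromosome 17 on the plus strand and overlaps AC167363.2 on the other strand. *Mdm2* (ENSMUSG00000020184) lies at 117688875 to 117710758 of chromosome 10 on the minus strand. *Eda2r* (ENSMUSG00000034457) lies at 97333840 to 97377216 of chromosome X on the minus strand. *Phlda3* (ENSMUSG00000041801) lies at 135766119 to 135769136 of chromosome 1 on the plus strand and has 2 exons at most. *Bax* (ENSMUSG00000003873) lies at 45461697 to 45466898 of chromosome 7 on the minus strand and overlaps Gm45808 on the same strand, so its reads could have been shared with that model. *Trp53inp1* (ENSMUSG00000028211) lies at 11156431 to 11174379 of chromosome 4 on the plus strand, and *Zmat3* (ENSMUSG00000027663) at 32334792 to 32366014 of chromosome 3 on the minus strand. All 7 are protein-coding.

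Start-site sequences from RefSeq (GRCm38.p6) matched 5 of the 7 members, in 6 windows of 300 bases because *Cdkn1a* has 2 start sites. *Trp53inp1* and *Zmat3* were not matched. Each window, from 250 bases before to 50 after the start, was searched on both strands for the 10-base p53 half-site and for the 20-base site of 2 adjacent half-sites. The 3 windows with a half-site are shown as the 250 bases before the start, 5′ to 3′ on the gene's strand, with matched bases in capitals.

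Cdkn1a, chr17:29090729-29090978, plus strand: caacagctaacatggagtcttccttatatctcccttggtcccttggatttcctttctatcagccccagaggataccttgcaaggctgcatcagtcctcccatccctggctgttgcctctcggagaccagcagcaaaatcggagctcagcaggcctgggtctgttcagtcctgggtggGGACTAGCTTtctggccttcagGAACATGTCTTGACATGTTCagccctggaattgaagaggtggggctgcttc

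Mdm2, chr10:117710759-117711008, minus strand: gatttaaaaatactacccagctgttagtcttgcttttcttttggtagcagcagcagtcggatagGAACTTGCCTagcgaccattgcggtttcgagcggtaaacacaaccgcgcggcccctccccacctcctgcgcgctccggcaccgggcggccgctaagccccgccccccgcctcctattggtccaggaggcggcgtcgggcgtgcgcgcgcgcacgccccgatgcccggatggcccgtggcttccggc

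Bax, chr7:45466899-45467148, minus strand: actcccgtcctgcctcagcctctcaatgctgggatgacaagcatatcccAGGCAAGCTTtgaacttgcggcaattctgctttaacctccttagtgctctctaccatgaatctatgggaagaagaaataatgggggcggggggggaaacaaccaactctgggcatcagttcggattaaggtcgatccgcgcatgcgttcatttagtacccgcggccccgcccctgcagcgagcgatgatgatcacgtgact

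The upstream *Cdkn1a* window held 2 half-sites, GGACTAGCTT ending 64 bases before the start and GAACATGTCT ending 42 bases before it. The second opens the run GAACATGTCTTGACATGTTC, which matched the 20-base site with 1 mismatch. The other *Cdkn1a* start, 2790 bases downstream, had no half-site in its window. *Mdm2* held GAACTTGCCT ending 177 bases before its start, and *Bax* held AGGCAAGCTT ending 192 bases before its start. No half-site was found in the windows of *Phlda3* and *Eda2r*. Of 32851 mouse promoter windows, 8.36% held a half-site and 0.0883% a 20-base site with at most 1 mismatch. These matches describe letters and are not measured binding.

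In DOX vs. Saline livers, all 7 members had a higher mean in DOX, and for 5 of them (*Cdkn1a*, *Mdm2*, *Eda2r*, *Phlda3* and *Bax*) every DOX liver lay above every Saline liver. This separation upward was met by 14.6% of the 3799 genes. The ratio of means was 5.23 for *Eda2r*, 4.04 for *Phlda3*, 4.0 for *Cdkn1a*, 1.84 for *Mdm2* and 1.73 for *Bax*, against 1.39 for *Zmat3* and 1.18 for *Trp53inp1*, whose groups overlapped. None of the 5 members tested passed adjusted p under 0.05, where 0.181% of genes did, and 4 of the 5 had an unadjusted p under 0.05 with a positive difference, where 7.27% of genes did. The median log2 difference was 0.79 over the 5 members and -0.34 over all genes tested, so the members stood above a table that sat lower in DOX as a whole.

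**Figure D1:**
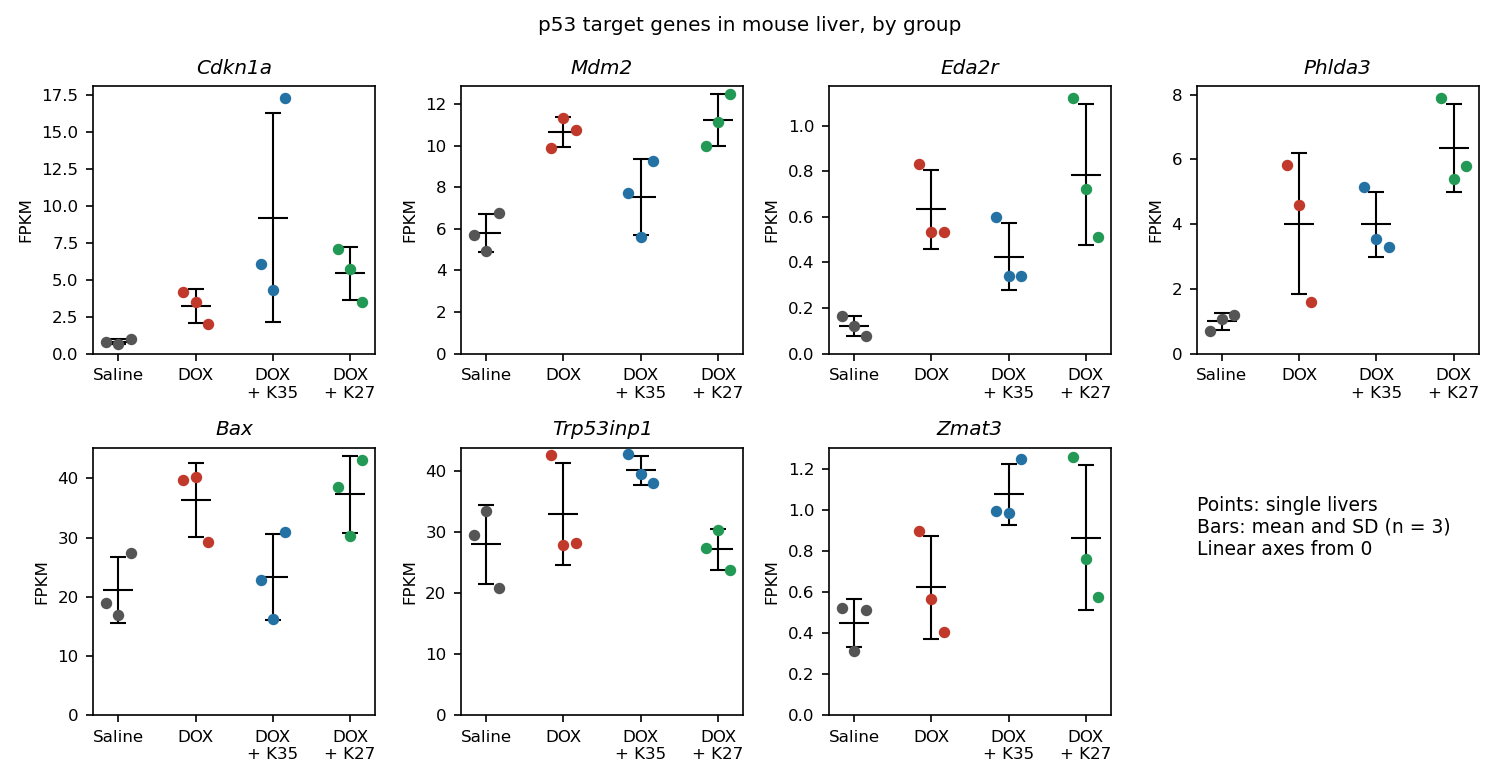
Expression of the 7 p53 targets in single livers, in FPKM on linear axes from 0, by group, with the mean and SD of 3 livers. *Cdkn1a*, *Mdm2*, *Eda2r*, *Phlda3* and *Bax* separate DOX from Saline livers, while *Trp53inp1* and *Zmat3* do not, and 1 DOX + K35 liver holds the highest *Cdkn1a* at 17.3 FPKM.

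*Cdkn1a* encodes p21, an inhibitor of cyclin-dependent kinases and the main arm of p53-driven cell cycle arrest. It measured 0.786, 0.674 and 0.958 FPKM in the Saline livers and 4.19, 3.51 and 1.98 FPKM in the DOX livers. The lowest DOX liver was thus still above the highest Saline liver. Means were 0.806 ± 0.143 and 3.22 ± 1.13 FPKM (SD, n = 3), a log2 difference of 1.19 ± 0.38 (SE, limma adjusted p = 0.0612).

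*Phlda3* encodes a small pleckstrin-homology protein that restrains Akt survival signalling. It measured 0.701, 1.08 and 1.20 FPKM in Saline and 5.83, 4.60 and 1.59 FPKM in DOX. The DOX liver with the header B4 was low in *Phlda3*, as it was in *Cdkn1a*. The log2 difference was 1.22 ± 0.31 (SE, limma adjusted p = 0.0612), and without B4 it was 1.64, with limma adjusted p = 0.0147.

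*Mdm2* encodes the ubiquitin ligase that degrades p53 and so closes the feedback loop. It measured 5.70, 4.96 and 6.75 FPKM in Saline and 9.92, 11.3 and 10.8 FPKM in DOX. The 3 DOX livers lay close together, with an SD of 0.710 FPKM around a mean of 10.7, against 5.80 ± 0.900 FPKM in Saline. The log2 difference was 0.79 ± 0.23 (SE, limma adjusted p = 0.0612).

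*Eda2r* encodes the receptor for the ectodysplasin isoform EDA-A2, a member of the tumour necrosis factor receptor family. It was the lowest member, at 0.164, 0.122 and 0.0770 FPKM in Saline and 0.831, 0.534 and 0.533 FPKM in DOX. The livers did not overlap, and the log2 difference of 0.54 ± 0.14 had limma adjusted p = 0.0665 in the fit without the filter.

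*Bax* encodes the pro-apoptotic protein that opens the outer mitochondrial membrane. It measured 18.9, 16.9 and 27.4 FPKM in Saline and 39.7, 40.3 and 29.2 FPKM in DOX. The groups were separated by the narrow gap between 27.4 and 29.2 FPKM, and the log2 difference was 0.78 ± 0.31 (SE, limma adjusted p = 0.0731).

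*Trp53inp1*, whose nuclear protein promotes p53 activity and autophagy, was at 29.6, 33.5 and 20.9 FPKM in Saline and 42.6, 28.0 and 28.3 FPKM in DOX. Only 1 DOX liver stood above the Saline range. *Zmat3*, which encodes an RNA-binding zinc finger protein, was at 0.523, 0.312 and 0.513 FPKM in Saline and 0.898, 0.568 and 0.405 FPKM in DOX. Their log2 differences of 0.23 (limma adjusted p = 0.529) and 0.16 (limma adjusted p = 0.429) were within the spread of the livers.

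These calls depended on how the libraries were put on a common scale. The 13 mitochondrially encoded genes took 62.2% to 83.3% of the summed values in DOX, 48.2% to 61.9% in Saline, 37.9% to 48.7% in DOX + K35 and 50.01% to 68.0% in DOX + K27, and B4 had the highest share. With median-ratio scaling, which moved the median of all genes from -0.34 to -0.04, all 5 tested members passed upward in DOX, as 18.5% of genes did. The 5 also passed upward after quantile normalization (11.2% of genes) and with the 20 highest genes left out (28.7% of genes). In these 3 settings *Cdkn1a* was higher by 1.42 to 1.60 and *Trp53inp1* by 0.65 to 0.80 on the log2 scale, and all 7 members were higher in DOX in every setting tried. In the fit without the filter, *Eda2r* passed upward under all 4 other scalings, at 0.44 to 0.75, and *Zmat3* passed with the 20 highest genes left out, at 0.37. With only the mitochondrial genes left out none of the 5 passed, although *Cdkn1a* was at 1.37 and *Mdm2* at 1.03.

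Leaving out 1 library also moved the count. Without Saline replicate 3, *Mdm2*, *Cdkn1a*, *Phlda3* and *Bax* passed upward, where 4.58% of genes did, and without DOX replicate 1, *Mdm2* and *Phlda3* passed, where 2.5% did. *Eda2r* passed in both, at 0.51 and 0.45. Without B4 only *Phlda3* passed. With 3 livers per group an exact two-sided permutation test of 1 gene cannot go below p = 0.1, which is the value for each of the 5 separated members.

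**Figure D2:**
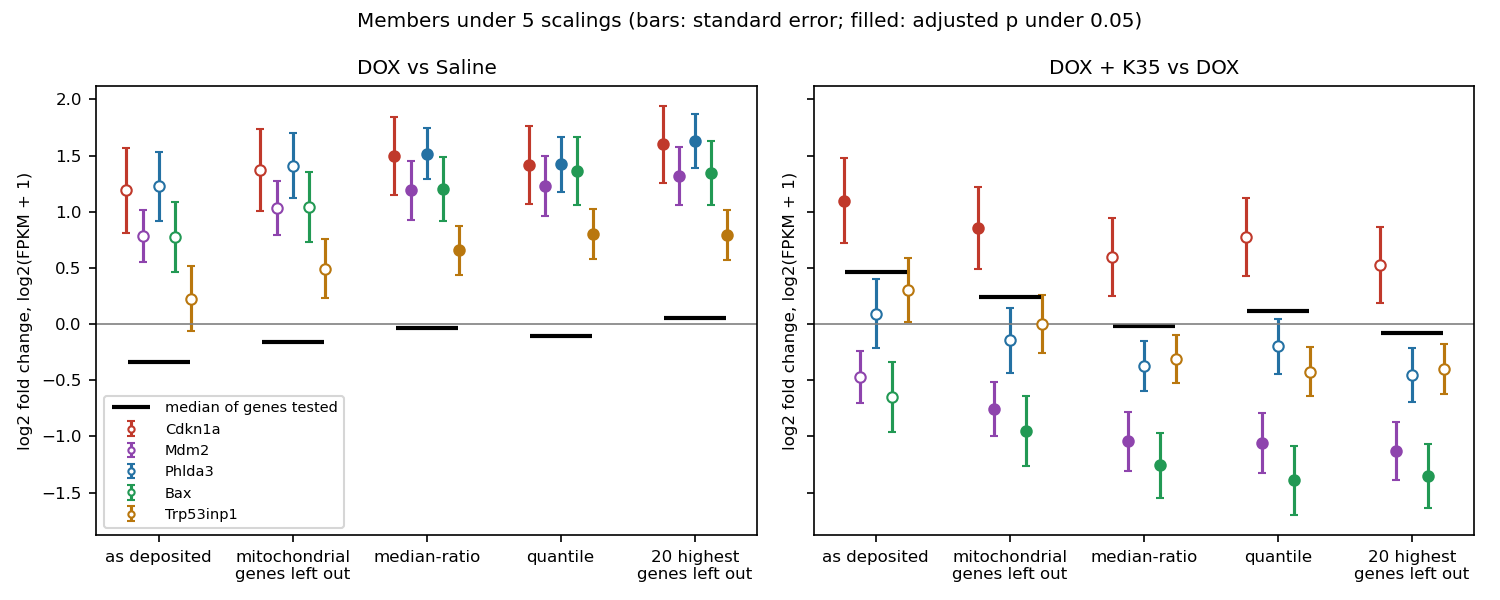
Log2 differences of the 5 members whose mean reached 1 FPKM (vertical axis, log2(FPKM + 1), with standard error) under the deposited scale and 4 others, with DOX vs. Saline on the left and K35 against DOX on the right. Filled points passed adjusted p under 0.05 and black bars are the median of the genes tested, which lies at -0.34 and 0.46 as deposited and near 0 with median-ratio scaling.

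Cell composition was measured beside the members. The 5 hepatocyte markers with a row (of 12) summed to 9057 to 9791 FPKM in Saline and 6095 to 12346 FPKM in DOX, so the main cell type of the labelled tissue was present in every group. The sum was carried by *Apoa1*, which averaged 5268 FPKM in Saline and 7424 FPKM in DOX, at a log2 difference of 0.46. The other 4 markers were lower in mean in DOX, *Cyp2e1* at -1.63, *Glul* at -1.19, *Apob* at -1.01 and *Cps1* at -0.89, each with an unadjusted p under 0.05, and none of the 5 passed. The 7 Kupffer cell and macrophage markers with a row (of 12) summed to 103 to 271 FPKM in Saline and 30.7 to 78.6 FPKM in DOX. All 7 were lower without overlap, where 23.0% of genes were. The 4 globin transcripts summed to 330 to 506 FPKM in Saline and 821 to 1135 FPKM in DOX. All 4 were higher without overlap, where 12.3% of genes were. No marker of these 2 lists passed. In whole liver, fewer cells of a type and less RNA per cell cannot be told apart, and the part of these shifts in the members' values was not tested.

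Adding K35 to doxorubicin did not move the members together. Against DOX livers, *Cdkn1a* passed upward at 2.85 times the DOX mean, where 46.0% of genes passed upward. *Zmat3* was higher without overlap, and *Mdm2* was lower without overlap, so that 2 of 7 members separated upward (40.1% of genes) and 1 downward (17.3% of genes). *Mdm2* and *Bax* had 0.707 and 0.641 times the DOX mean, and neither passed as deposited. The median log2 difference was 0.09 over the 5 tested members and 0.46 over all genes tested. All comparisons with DOX share the same 3 DOX livers.

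*Cdkn1a* measured 6.03, 4.31 and 17.3 FPKM in DOX + K35, so every liver was above the highest DOX liver at 4.19 FPKM, but the liver with the header C4 stood far above the other two. The log2 difference was 1.10 ± 0.38 (SE, limma adjusted p = 0.0224). Without C4 it was 0.57 with limma adjusted p = 0.0938, and without B4 it was 0.86 with limma adjusted p = 0.0975. It remained positive but did not pass with median-ratio scaling (0.60, limma adjusted p = 0.125), quantile normalization (0.78) or with the 20 highest genes left out (0.52). From qPCR and protein measurements in this model, the study reported that K35 or K27 lowered the p21 raised by doxorubicin in liver and lung. The *Cdkn1a* means here were instead higher with either compound than in DOX, and the reason was not tested.

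*Mdm2* measured 7.72, 5.62 and 9.27 FPKM in DOX + K35, all under the lowest DOX liver at 9.92 FPKM. The log2 difference was -0.47 ± 0.23 (SE, limma adjusted p = 0.0959). *Bax* measured 22.9, 16.2 and 30.9 FPKM, with 2 of 3 livers under every DOX liver and C4 within the DOX range, at a difference of -0.65 ± 0.31 (limma adjusted p = 0.0879).

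Both *Mdm2* and *Bax* passed downward under 4 other scalings and without C4. With median-ratio scaling *Mdm2* was at -1.04 (limma adjusted p = 0.0075) and *Bax* at -1.26 (limma adjusted p = 0.0062), where 41.2% of genes passed downward. The share of genes passing downward was 31.9% after quantile normalization, 42.8% with the 20 highest genes left out, 27% with the mitochondrial genes left out and 16.8% without C4, against 10.7% as deposited. *Mdm2* and *Bax* were the 2 tested members that passed downward in each of these 5 settings, and *Cdkn1a* passed upward in 1 of them, at 0.85 with the mitochondrial genes left out. In the fit without the filter, *Eda2r* passed downward with median-ratio scaling (-0.42) and with the 20 highest genes left out (-0.46).

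*Zmat3* measured 0.997, 0.989 and 1.25 FPKM in DOX + K35, above every DOX liver, at 1.73 times the DOX mean (log2 difference 0.37 ± 0.16, limma adjusted p = 0.0619 without the filter), and it passed upward after quantile normalization (0.50) and without DOX replicate 1 (0.48). *Eda2r* measured 0.598, 0.342 and 0.339 FPKM, at 0.673 times the DOX mean with overlap (limma adjusted p = 0.237). *Phlda3* was at 5.15, 3.53 and 3.31 FPKM, within the DOX range of 1.59 to 5.83 FPKM, and the means were nearly equal at 3.996 and 4.007 FPKM. *Trp53inp1* was at 42.8, 39.5 and 38.1 FPKM, a tighter set than the DOX livers. The differences of *Phlda3* (0.09, 95% interval -0.56 to 0.75) and *Trp53inp1* (0.30, -0.31 to 0.91) missed the threshold, and both turned negative under all 4 other scalings.

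**Figure D3:**
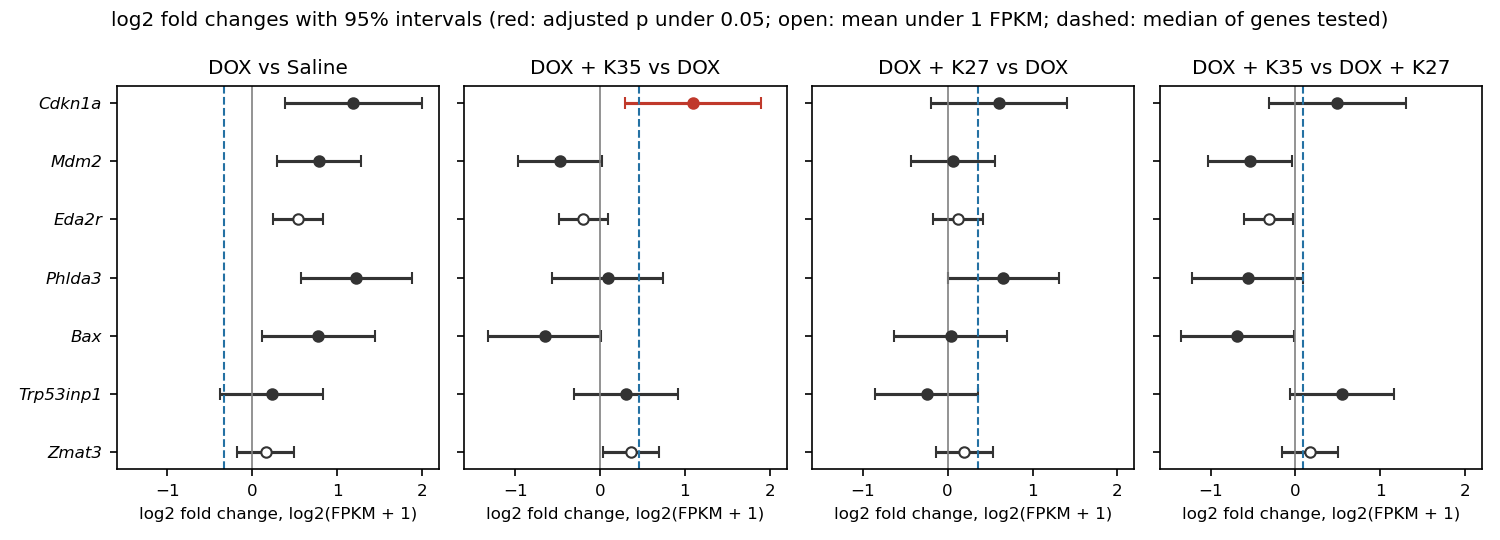
Log2 differences of the 7 members (horizontal axis, log2(FPKM + 1)) with 95% intervals in 4 comparisons, open points marking the 2 members with a mean under 1 FPKM and the dashed line the median of the genes tested. *Cdkn1a* in DOX + K35 vs. DOX, at 1.10, is the 1 red point past adjusted p under 0.05, and *Mdm2* and *Bax* lie left of 0 with K35 and near 0 with K27.

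With K27 added, no member separated from its DOX levels. In DOX + K27 vs. DOX livers none of the 5 tested members passed, where 0.0603% of genes did, and none had an unadjusted p under 0.05, where 29.3% of genes did. The groups overlapped for all 7 members. The median log2 difference was 0.06 over the 5 members and 0.36 over all genes tested.

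*Mdm2* measured 9.996, 11.2 and 12.5 FPKM in DOX + K27, and its difference from DOX was 0.06 (95% interval -0.43 to 0.56). *Bax* measured 38.5, 30.2 and 43.1 FPKM, with a difference of 0.03 (-0.63 to 0.70). Both turned negative under all 4 other scalings, without passing. *Cdkn1a* measured 7.04, 5.75 and 3.51 FPKM, with 2 of 3 livers above every DOX liver and a difference of 0.60 (-0.20 to 1.41). Its mean was 1.68 times the DOX mean.

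*Phlda3* measured 7.91, 5.38 and 5.78 FPKM, the highest mean of the 4 groups at 6.36 ± 1.36 FPKM. That mean was 1.59 times the DOX mean. Its difference from DOX was 0.65 (95% interval -0.0011 to 1.31, limma adjusted p = 0.17), and *Phlda3* passed at 0.93 without DOX replicate 1, where 32.3% of genes passed upward. *Eda2r* was at 1.12, 0.723 and 0.513 FPKM and *Zmat3* at 1.26, 0.760 and 0.575 FPKM, both overlapping DOX. Their means were 1.24 and 1.39 times the DOX means. *Trp53inp1* was at 27.4, 30.4 and 23.7 FPKM, with a difference of -0.25 (-0.86 to 0.36).

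Several targets stood above Saline in both compound groups. With K35, 5 of 7 members (*Cdkn1a*, *Eda2r*, *Phlda3*, *Trp53inp1* and *Zmat3*) were higher without overlap, where 21.5% of genes were. *Cdkn1a* passed at 11.4 times the Saline mean (log2 difference 2.29 ± 0.38, limma adjusted p = 0.0281), where 0.0904% of genes passed upward. *Phlda3* was at 4.03 times (1.32 ± 0.31, limma adjusted p = 0.142) and *Eda2r* at 3.52 times the Saline mean. *Mdm2* (1.30 times) and *Bax* (1.11 times) overlapped Saline. When each of the 12 libraries was dropped in turn, *Cdkn1a* passed 6 times, at 1.76 to 2.65. It did not pass without any one of Saline replicates 1, 2 and 3, the DOX liver B3, DOX + K35 replicate 1 or DOX + K27 replicate 2. *Phlda3* passed as well without B4, and with the replicate block over the 8 numbered libraries it passed beside *Cdkn1a*, where 4.61% of genes passed upward.

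With K27, 6 of 7 members, all but *Trp53inp1*, were higher without overlap, where 12.8% of genes were. *Phlda3* passed at 6.41 times the Saline mean (log2 difference 1.88 ± 0.31, limma adjusted p = 0.0282), where 0.121% of genes passed upward. *Cdkn1a* was at 6.74 times (1.80 ± 0.38, limma adjusted p = 0.116), *Eda2r* at 6.50 times, *Mdm2* at 1.93 times and *Bax* at 1.77 times the Saline mean. *Trp53inp1* had means of 27.2 and 28.0 FPKM. With the replicate number as a block over the 8 numbered libraries, *Phlda3* kept its difference of 1.88 but did not pass (limma adjusted p = 0.0716). With each of the 12 libraries dropped in turn it passed 7 times, at 1.73 to 1.97, and not without Saline replicate 1 or 2, DOX + K35 replicate 2 or DOX + K27 replicate 1 or 2. *Cdkn1a* passed as well without C4, at limma adjusted p = 0.0095.

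The 2 compounds were given at the same dose and days, and DOX + K35 vs. DOX + K27 is the 1 pair compared. None of the 5 tested members passed, where 2.11% of genes did, and 2 of the 5 (*Mdm2* and *Bax*) had an unadjusted p under 0.05 and a lower value with K35, where 13.6% of genes did. *Mdm2* and *Phlda3* were lower with K35 without overlap, where 19.5% of genes were, and *Trp53inp1* was higher without overlap, where 27.8% were. The log2 difference of *Mdm2* was -0.54 (95% interval -1.03 to -0.04, limma adjusted p = 0.16), that of *Bax* -0.68 (-1.35 to -0.02) and that of *Eda2r* -0.32 (-0.61 to -0.02). *Phlda3* was at -0.56 (-1.22 to 0.09), *Trp53inp1* at 0.55 (-0.06 to 1.16), *Cdkn1a* at 0.49 (-0.31 to 1.30) and *Zmat3* at 0.17 (-0.16 to 0.50). For the low members the K35 mean was 0.542 (*Eda2r*), 0.629 (*Phlda3*), 1.69 (*Cdkn1a*) and 1.25 (*Zmat3*) times the K27 mean. With the replicate number as a block over the 8 numbered libraries, *Mdm2* (-0.59) and *Bax* (-0.75) passed with lower values for K35, where 18.5% of genes did, and *Trp53inp1* (0.45) passed with higher values, where 25.2% did. The same 8 libraries without the block called *Mdm2* (-0.68) and *Bax* (-0.90), where 369 of 3317 genes passed with lower values for K35. Intervals that span 0 do not show that the compounds acted alike.

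The order of the mean levels differed between members. *Cdkn1a* ran from Saline to DOX, DOX + K27 and DOX + K35, with a gap above Saline and overlap between DOX and DOX + K27 and between DOX + K27 and DOX + K35. *Mdm2* and *Bax* ran from Saline to DOX + K35, DOX and DOX + K27, and in both Saline overlapped DOX + K35 and DOX overlapped DOX + K27. *Eda2r* had the same order, with a gap only above Saline. *Phlda3* had its gap above Saline too, with nearly equal DOX + K35 and DOX means, and *Zmat3* ran from Saline to DOX, DOX + K27 and DOX + K35, each overlapping its neighbour. *Trp53inp1* ran from DOX + K27 to Saline, DOX and DOX + K35, each overlapping its neighbour.

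*Trp53*, which encodes p53 itself, showed no separation between DOX and Saline. It measured 12.6, 10.96 and 13.9 FPKM in Saline and 14.4, 10.9 and 8.90 FPKM in DOX, a log2 difference of -0.14 (limma adjusted p = 0.639) that was positive under the 4 other scalings. p53 is mostly controlled through protein stability, which RNA does not measure. Of 24 listed genes of p53 and its regulators 7 had a row and 6 were tested, and none passed in DOX vs. Saline. *Mdm4*, the Mdm2 partner that blocks p53 transactivation, measured 7.09, 8.12 and 10.4 FPKM in Saline and 13.7, 16.7 and 13.1 FPKM in DOX. It was higher without overlap at 0.71 (limma adjusted p = 0.0795), and it passed upward with median-ratio scaling, quantile normalization and the 20 highest genes left out.

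The wider p53 response was followed in 56 other listed targets, of which 19 had a row and 16 were tested. None passed in DOX vs. Saline as deposited, and 9 of the 16 had an unadjusted p under 0.05 in either direction, where 47.4% of all genes did. Their median log2 differences were 0.34 for the 6 cell cycle and growth genes, 0.33 for the 7 repair and other genes and -0.88 for the 3 cell death genes.

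With median-ratio scaling 5 of the 16 passed upward in DOX, where 18.5% of genes did. The count was 5 after quantile normalization (11.2% of genes) and 8 with the 20 highest genes left out (28.7% of genes). None passed downward, where 11.6%, 8.38% and 3.64% of genes did in these settings. The 5 that passed upward in all 3 were *Aen*, *Fdxr*, *Plk2*, *Polk* and *Tigar*, singled out after their values were seen. *Aen*, a p53-induced nuclease, measured 2.02, 3.52 and 3.02 FPKM in Saline and 6.78, 7.22 and 3.34 FPKM in DOX. *Polk*, a translesion DNA polymerase, measured 1.43, 0.904 and 0.865 FPKM in Saline and 2.87, 2.54 and 1.86 FPKM in DOX, without overlap. *Fdxr*, mitochondrial ferredoxin reductase, measured 11.5, 14.7 and 17.1 FPKM in Saline and 18.2, 32.1 and 22.9 FPKM in DOX, without overlap. Not all targets followed: *Btg2*, an antiproliferative gene, was at -1.07, *Fas*, a death receptor gene, at -0.88 and *Gpx1*, glutathione peroxidase, at -1.58, each with limma adjusted p = 0.0612 and each negative under all 5 scalings. As deposited, *Ei24* (-0.93, limma adjusted p = 0.0639), *Plk3* (-0.34) and *Sp100* (-0.04) were negative too. The remaining tested targets were positive.

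**Figure D4:**
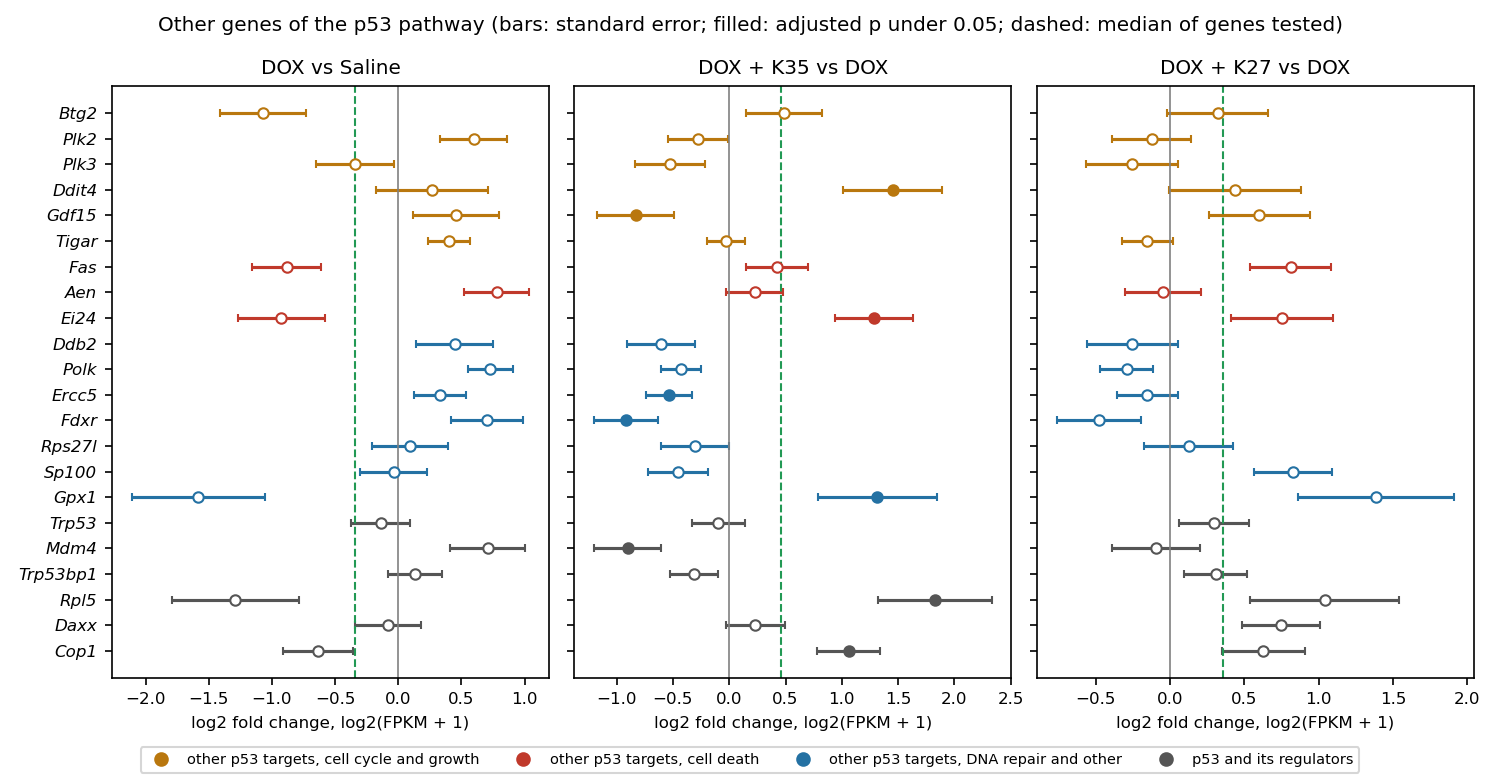
Log2 differences with standard errors (horizontal axis, log2(FPKM + 1)) of the 22 tested genes among other p53 targets and p53 regulators in 3 comparisons, coloured by list, with the median of the genes tested dashed. No gene is filled in DOX vs. Saline or DOX + K27 vs. DOX. In DOX + K35 vs. DOX 9 are filled, 5 to the right and 4 to the left of 0, where 46.0% and 10.7% of all genes passed.

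Of the 16 other targets, with K35 against DOX, 3 passed upward and 3 downward, and among the 6 tested regulators 2 passed upward and 1 downward. Of all genes tested, 46.0% passed upward and 10.7% downward. *Ddit4*, an inhibitor of mTORC1, was higher by 1.45 ± 0.44 (limma adjusted p = 0.013), with C4 at 22.8 FPKM against 3.91 and 4.86 FPKM in the other DOX + K35 livers. *Ei24* (1.29) and *Gpx1* (1.31) were the other two higher targets. *Fdxr* (-0.91, limma adjusted p = 0.014), *Gdf15*, a stress cytokine gene (-0.83, limma adjusted p = 0.0489), and the excision repair nuclease gene *Ercc5* (-0.53, limma adjusted p = 0.0385) were lower. *Mdm4* was lower by -0.90 ± 0.30 (limma adjusted p = 0.018), and *Rpl5* (1.83) and *Cop1* (1.06) were higher.

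Scaling shifted this balance. With median-ratio scaling 1 of the 16 other targets passed upward and 10 downward, where 37.8% and 41.2% of all genes did. With the mitochondrial genes left out 2 passed upward and 7 downward, where 42.7% and 27% of all genes did. The table as a whole thus also shifted toward downward calls. *Fdxr*, *Ercc5*, *Gdf15* and *Mdm4* passed downward under all 4 other scalings, and *Ei24*, *Rpl5* and *Cop1* passed upward under all 4. *Ddit4* did not pass with median-ratio scaling or with the 20 highest genes left out. *Gpx1* passed in none of the 4, and 3 times when each of the 12 libraries was dropped in turn. *Ercc5* passed in 5 of those 12 fits and *Gdf15* in 6, while *Ddit4*, *Ei24*, *Rpl5* and *Cop1* passed in all 12, *Fdxr* in 10 (not without B3 or DOX + K35 replicate 2) and *Mdm4* in 9.

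None of the 22 genes passed with K27 against DOX. Between the compounds, *Gdf15* (-1.43 ± 0.34, limma adjusted p = 0.0433) and *Sp100*, a nuclear body protein gene (-1.28 ± 0.26, limma adjusted p = 0.0271), passed with lower values for K35. *Gdf15* measured 2.39, 3.57 and 1.31 FPKM with K35 and 6.88, 6.49 and 10.9 FPKM with K27, and it passed 5 times with each of the 12 libraries dropped in turn, not without B3 or any 1 of the K35 or K27 livers. *Sp100* passed in 9 of them.

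The genes with the most similar pattern were ranked for each member by Pearson's r of log2(FPKM + 1) over the 12 libraries, which share depth, scale and groups, so r is a description with no test. *Bax* was most like *Hsf1* (r = 0.959) and *Phf21a* (0.943), and *Mdm2* most like *Agrn* (0.929) and *Morc2a* (0.922). *Eda2r* was most like *Zbtb11* (0.919) and then its fellow member *Phlda3* (0.863). *Zmat3* was most like *Cdkn1a* (0.871), and *Cdkn1a* itself like *Tmem39a* (0.872) and *Icam2* (0.866). *Phlda3* was most like *Adamtsl2* (0.877) and *Icam2* (0.871), and *Trp53inp1* had the lowest leading values, with *Sept9* (0.800) and *Gopc* (0.798).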

How the data were processed

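Total liver RNA was poly(A)-selected, made into libraries with the NEBNext Ultra kit and sequenced. Per the labels' processing notes the authors used HISAT2, GRCm38, DESeq2 and edgeR, in an order not given in the sources used here. The deposited table holds 3799 genes, 12 libraries and no counts, and how its genes were selected is not given. The authors' values were read as FPKM from their range, so depth and counting error are unknown. Libraries B3, B4 and C4 are known by group only, and nothing ties p-values to more than the spread between these livers.

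Values were tested as log2(FPKM + 1) with limma 3.58.1 in R 4.3.3 (empirical Bayes with trend, 1 layout of 4 groups), checked on simulated data. The filter was a mean of 1 FPKM, and Benjamini-Hochberg adjustment ran over all genes tested within each of 6 comparisons. Dose, days and age come from the study's methods. Members and lists were chosen with earlier results of these data known. By rule, up to 3 genes per direction, list and comparison past the threshold were named beside the members. Outside this rule, other listed genes are described where they did not pass. Examples are *Trp53*, *Mdm4*, *Aen*, *Polk*, *Fdxr*, *Btg2*, *Fas* and *Gpx1* in DOX vs. Saline, and *Ccnd1* and *Ccnd3*. Alternatives were pseudocount 0.1, no filter, 4 other scalings, a fit of the groups compared, robust variance, an adjusted p under 0.01, a log2 change of 1, dropping each library in turn and a replicate block.

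Same-numbered Saline and DOX + K27 livers deviated together (r = 0.258, 0.176 and 0.474), so they were treated as pairs by this check. But Saline replicate 1 was closer to DOX + K27 replicate 2 (r = 0.38), and Saline replicate 2 to DOX + K27 replicate 1 (r = 0.302). These values therefore do not show that a number marks a pair, and no label says that it marks a shared litter or day.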

Additional observations from a re-analysis of the deposited data

How the results depend on the processing

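The count of members past the threshold in DOX vs. Saline was 0, and it was 5 with median-ratio scaling, 5 after quantile normalization, 5 with the 20 highest genes left out and 0 to 4 when 1 library was left out. For K35 against DOX the count was 1, *Cdkn1a* upward, where 46.0% of genes passed upward. Under each of those 3 scalings it was 2, *Mdm2* and *Bax* downward and *Cdkn1a* no longer passing. There 41.2%, 31.9% and 42.8% of genes passed downward. With the mitochondrial genes left out it was 3, *Cdkn1a* upward (42.7% of genes) and *Mdm2* and *Bax* downward (27% of genes). The count was 0 at adjusted p under 0.01 and 1 to 2 with 1 library left out. For K27 against DOX it was 0, and 0 to 1 with 1 library left out. For K35 against Saline it was 1, and 0 after quantile normalization, in a fit of the 2 groups and at adjusted p under 0.01, with 0 to 2 when 1 library was left out. For K27 against Saline it was 1, and 2 with pseudocount 0.1, 2 in a fit of the 2 groups, 0 at adjusted p under 0.01 and 0 to 2 with 1 library left out. Over all genes, 6 passed in DOX vs. Saline, against 1000 with median-ratio scaling, 649 after quantile normalization, 1067 with the 20 highest genes left out and 1474 without DOX replicate 1. For K35 against DOX, 1883 of the 3317 genes passed as deposited. The totals were 2621, 2320 and 2330 under the same 3 scalings and 2305 with the mitochondrial genes left out. The cause was not tested.

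With the replicate block over the 8 numbered libraries the count was 2 for K35 against Saline, 0 for K27 against Saline and 3 between the compounds, where *Mdm2* (-0.59), *Trp53inp1* (0.45) and *Bax* (-0.75) passed. Of the 3317 genes tested, 238, 0 and 1450 passed with the block in these comparisons. The same 8 libraries without the block, an alternative added after seeing the data, gave 2, 2 and 2 members. Without the block 5, 5 and 673 of all genes passed. Only Saline and DOX + K27 have 3 numbered pairs, and not every liver was most like its own number. No paired analysis was possible for the comparisons with DOX because only 1 DOX library carries a replicate number.

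Some differences changed sign, and none of these had passed. With median-ratio scaling, quantile normalization, the 20 highest genes left out and the mitochondrial genes left out, listed in that order for K35 against DOX, *Phlda3* went to -0.37, -0.20, -0.45 and -0.14 and *Trp53inp1* to -0.31, -0.42, -0.40 and -0.00012. For K27 against DOX, *Mdm2* went to -0.38, -0.42, -0.39 and -0.13 and *Bax* to -0.43, -0.51, -0.44 and -0.17 in the same order, and *Eda2r* went to -0.080 with median-ratio scaling and -0.089 with the 20 highest genes left out. For K35 against Saline, *Bax* went to -0.055, -0.027 and -0.0090 under the first 3, and to -0.092 in the 8 numbered libraries. For K27 against Saline, *Trp53inp1* went to 0.027 after quantile normalization, 0.073 with the 20 highest genes left out and 0.040 with the mitochondrial genes left out. Between the compounds, *Cdkn1a* went to -0.12 with the block and -0.034 without it. With 1 library left out, ranges that crossed 0 were those of *Phlda3* for K35 against DOX (-0.33 to 0.37), *Mdm2* (-0.011 to 0.14), *Eda2r* (-0.011 to 0.23) and *Bax* (-0.11 to 0.17) for K27 against DOX, *Bax* for K35 against Saline (-0.092 to 0.35), *Trp53inp1* for K27 against Saline (-0.21 to 0.12) and *Cdkn1a* between the compounds (-0.034 to 0.86). The fits of *Eda2r* and *Zmat3* under these settings without the filter were also added after seeing the data. Depth is unknown, so counting error could not be set beside the low values of *Eda2r* and *Zmat3*.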

Other observations

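Genes that work beside the members were also followed. Of 21 listed Bcl2 family partners of *Bax* 2 had a row: *Vdac1*, an outer membrane channel gene, averaged 63.3, 30.4, 81.0 and 52.6 FPKM in Saline, DOX, DOX + K35 and DOX + K27 livers, and *Bcl2l13* 3.38, 2.09, 5.10 and 3.13 FPKM in the same order. Both passed upward in DOX + K35 vs. DOX, where 46.0% of all genes did. *Vdac1* was at 1.503 ± 0.44 (limma adjusted p = 0.0106) and *Bcl2l13* at 1.01 ± 0.25 (limma adjusted p = 0.006). Both also passed when each of the 12 libraries was dropped in turn. Of 22 cyclins, kinases and their inhibitors 2 had a row, and *Ccnd1* averaged 19.1, 8.93, 22.7 and 21.0 FPKM and *Ccnd3* 18.8, 11.9, 12.7 and 18.7 FPKM in the same order, with none passing. *Rrm2*, a ribonucleotide reductase subunit and the 1 proliferation gene of 21 with a row, averaged 1.15, 1.12, 4.66 and 1.73 FPKM and passed in DOX + K35 vs. DOX (1.14, limma adjusted p = 0.0213), but not without B3, B4 or C4.

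Of 17 genes of tumour necrosis factor and ectodysplasin receptor signalling, the family of *Eda2r*, 2 had a row and none passed. With K35 against DOX, 4 of 7 Kupffer cell and macrophage markers and 4 of 5 hepatocyte markers passed upward, where 46.0% of all genes did, and 4 of 4 erythroid markers passed downward, where 10.7% did. Of 5 endothelial and stellate cell markers 2 passed upward and 1 downward, and of 2 lymphocyte markers 1 passed downward. The 1 neutrophil marker with a row did not pass, and of 6 cholangiocyte markers 0 had a row.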
